A study of Mus musculus with 3 samples.

Results

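The CC chemokines are a family of small secreted proteins with adjacent cysteines that attract leukocytes, and 10 of them were followed here in adiponectin-treated macrophages grown from mouse bone marrow: Ccl2, Ccl3, Ccl4, Ccl5, Ccl6, Ccl7, Ccl9, Ccl12, Ccl17 and Ccl22. They were chosen by name, with earlier results of these data known. Their probes were found by accession among those that are not controls. All 10 were on the array among 20660 named genes. Each had 1 probe, which was 1 spot per array except for Ccl2, whose probe was printed in 10 spots. The treated macrophages had received adiponectin, a hormone of fat cells, at 12 µg/ml for 18 h, and the untreated macrophages had not. Both groups were C57BL/6J cells matured in medium conditioned by L929 fibroblasts, which supplies CSF-1, and then held in 0.1% serum, with no genetic change in either group. Each of the 3 arrays compared a treated with an untreated sample, and the treated RNA carried Cy3 except on replicate 2, where it carried Cy5. The labels call the arrays biological replicates without saying whether the cultures came from separate mice. The p-values therefore rest on the spread between these arrays, which limma moderated for each gene with the spread over all tested genes.

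Chemokines act through G-protein-coupled receptors on leukocytes and guide them along a gradient. In the mouse, Ccl2, Ccl7 and Ccl12 act on the receptor Ccr2 and attract monocytes, Ccl3 and Ccl5 act on Ccr1, and Ccl17 and Ccl22 act on Ccr4 of T cells. Ccl6 and Ccl9 are ligands of Ccr1 that rodents have and that macrophages make without stimulation. Macrophages are a main source of Ccl3, Ccl4 and Ccl5 in inflammation.

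The CC chemokine genes did not move as a block. Ccl3, Ccl4 and Ccl5 were 6.16 to 9.02-fold higher in treated cells, Ccl6 was 2.22-fold lower, and the log2 changes of the other 6 genes lay between -0.16 and 0.52. A gene was called when its 3 log2 ratios of treated over untreated differed from 0 in limma at a Benjamini-Hochberg adjusted p under 0.05 over 13179 tested genes. By that rule 6 of the 10 were higher, where the share over all tested genes was 24.5%, and 1 was lower, where that share was 46.1%. The 10 were chosen with earlier results of these data known, so setting them beside these shares is no test of the group. Their ratios were above 0 on all 3 arrays for 6 genes (30.3% of all tested genes) and below 0 on all 3 for 2 genes (51.8%). The median log2 change was 0.23 over the 10 genes and -0.17 over all tested genes. Ccl22 passed the filter on dim probes through its treated readings alone, and Ccl17 through 3 treated readings and 1 untreated one. With only the 8 genes that were well above background in all 6 readings, 3 were higher and 1 lower, beside shares of 26.9% and 46.4% over the 11391 genes that pass the same filter. With median centring of each array in place of loess limma called none of the 13179 genes, 5314 of which had an unadjusted p under 0.05, and the log2 changes were 2.10 for Ccl3, 1.96 for Ccl4, 1.63 for Ccl5 and -2.24 for Ccl6. RNA of whole cultures cannot tell a change in RNA per cell from a change in the number of cells that make it.

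**Figure D1:**
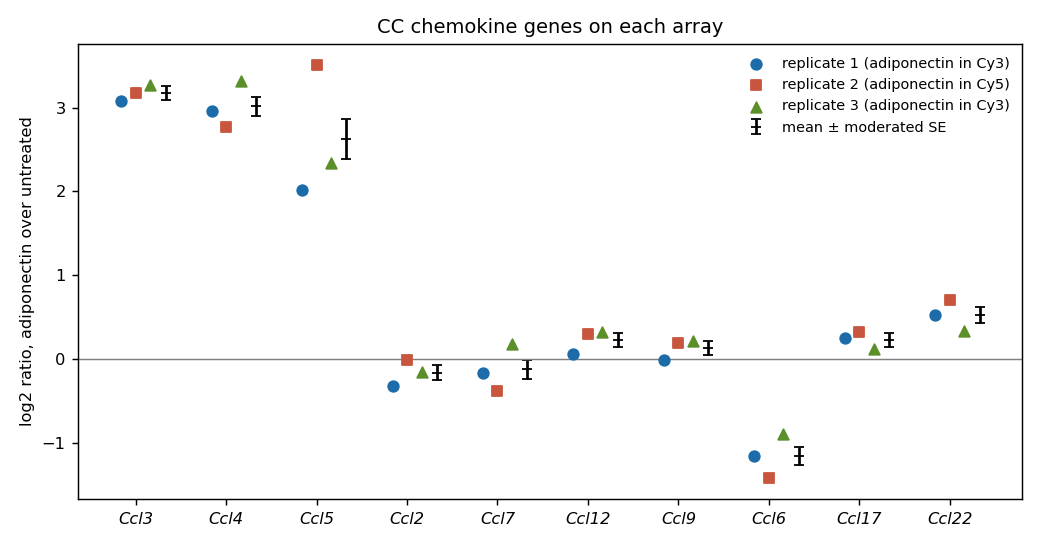
Log2 ratio of adiponectin over untreated for each CC chemokine gene (vertical axis) on each of the 3 arrays, with the mean and limma's moderated standard error beside the points. Ccl3 and Ccl4 lie between 2.77 and 3.32 on all arrays, Ccl6 lies below 0 on all arrays, and Ccl5 on replicate 2 (3.51) stands above its other values.

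Treated channels had 43.9% to 47.5% of probes well above background and untreated channels 53.4% to 54.3%. The 3 arrays lay on 1 slide that was scanned in 1 run, so no slide or scan batch divides them. Of 10 macrophage markers, 9 were tested and all 9 were well above background in all 6 readings, with Adgre1 (F4/80), Csf1r and Mertk among them. In treated cells 8 of these markers were called lower and 1, Cd14, higher, and their summed normalised brightness was 212000 to 282000 in treated cells, against 441000 to 485000 in untreated cells. The part of this difference in the chemokine results was not tested. Of the neutrophil markers 3 of 6 tested were higher and 2 lower, and of the T cell markers 2 of 3 were higher, but Cd3d, Cd3g and Cd8a were not well above background in any reading. Fibroblast markers had 2 of 4 tested higher, mast cell and basophil markers 1 higher and 1 lower of 2, B cell markers 1 of 2 lower, eosinophil markers 1 of 2 lower (Prg2, which passed the filter through its untreated readings alone), and NK cell markers 0 of 2 called in limma. Beside all these marker counts, the shares over all tested genes were 24.5% higher and 46.1% lower. Loess over all probes left the tested genes at a median of -0.17. After centring every array on the tested genes 4638 were called higher and 4835 lower, against 3229 and 6074 without that centring.

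Ccl3, Ccl4 and Ccl5, attractants of monocytes and T cells, rose most. Ccl3 (MIP-1α) had a normalised brightness, on the log2 scale, of 16.26, 15.95 and 16.42 in treated cells on replicates 1, 2 and 3, against 13.18, 12.77 and 13.16 in untreated cells. Every treated sample was brighter than every untreated one. The share of all tested genes without such overlap is not given here, and 70.6% of them were called in either direction. The ratios of Ccl3 were 3.08, 3.18 and 3.27. Their mean was a log2 change of 3.17 ± 0.084 (moderated SE, n = 3 arrays), or 9.02-fold (limma adjusted p = 4.08e-08). Ccl3 ranked 71st from the top among the tested genes. Ccl4 (MIP-1β), which is encoded beside Ccl3, had 16.47, 16.08 and 16.82 in treated cells, against 13.50, 13.31 and 13.51 in untreated cells. The groups again did not overlap, and replicate 2 was the lowest array in both. Ccl4 rose by 3.02 ± 0.11 on the log2 scale, or 8.10-fold (limma adjusted p = 1.78e-07). Within arrays the ratio of Ccl3 exceeded that of Ccl4 by 0.11, 0.40 and -0.05 on the log2 scale on replicates 1, 2 and 3, so the order of these genes changed between arrays.

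Ccl5 (RANTES), which attracts T cells and monocytes, rose too but varied more. Its normalised brightness was 18.46, 18.09 and 18.70 in treated cells, against 16.44, 14.58 and 16.36 in untreated cells, on the log2 scale. The groups did not overlap, and the untreated value of replicate 2 stood far below the other untreated values. The log2 ratios were 2.02, 3.51 and 2.35, for a mean of 2.62 ± 0.24 (moderated SE, n = 3 arrays), or 6.16-fold (limma adjusted p = 1.80e-05), and their standard deviation of 0.79 was the widest among the 10 genes. Ccl5 was also the member with a called dye coefficient (0.67, limma adjusted p = 0.0464), as were 45 of all tested genes (0.341%). Replicate 2 was the only array with the treated RNA in Cy5, so the dye and that replicate cannot be told apart. The log2 change was 2.85 with a dye term and 2.18 without replicate 2. The spot of Ccl5 ranked 3rd, 151st and 2nd in mean brightness among 59305 spots on replicates 1, 2 and 3, its brightest reading was at 60.8% of the scanner's saturation value, and no reading of the 10 genes was marked as saturated. Against Ccl3, the ratio of Ccl5 was lower by 1.06 and 0.92 on the log2 scale on replicates 1 and 3 (differences of -1.06 and -0.92) and higher by 0.34 on replicate 2.

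**Figure D2:**
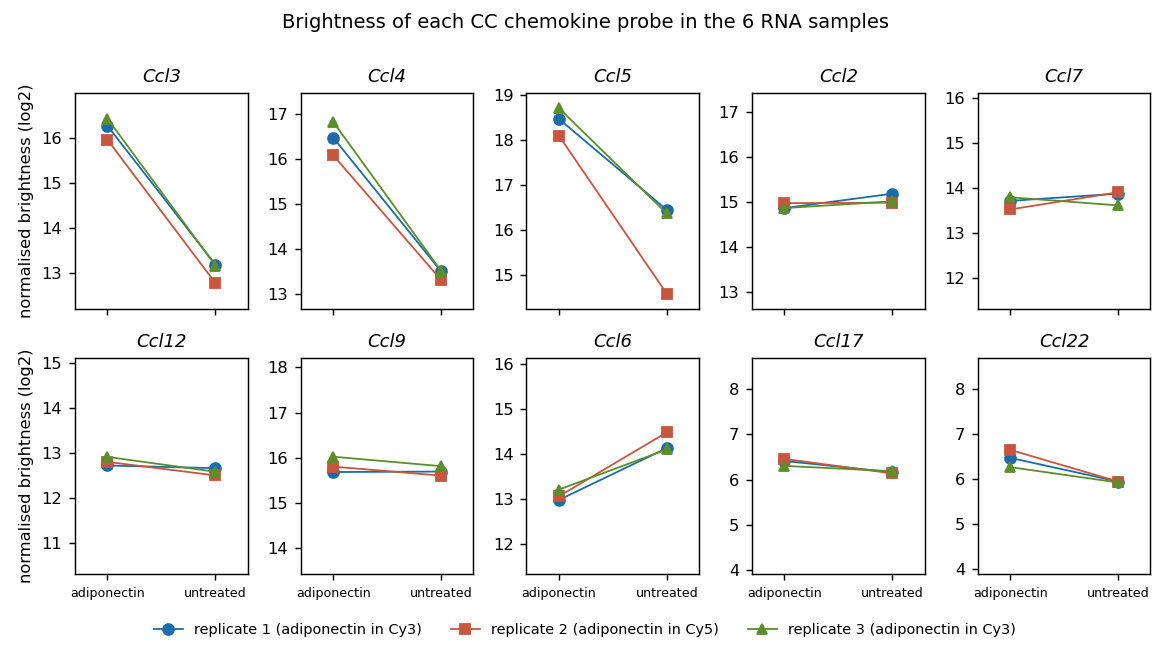
Normalised log2 brightness (vertical axis, the same span in each panel) of each gene's probe in adiponectin-treated and untreated cells, with a line for each array. The lines of Ccl3, Ccl4 and Ccl5 slope down from treated to untreated on all arrays, those of Ccl6 slope up, and the untreated Ccl5 value of replicate 2 (14.58) stands apart.

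Of the ligands of Ccr2, Ccl2 and Ccl7 did not pass and Ccl12 rose slightly. Ccl2 (MCP-1), the main monocyte attractant, had a normalised log2 brightness of 14.87, 14.98 and 14.87 in treated cells, against 15.19, 14.99 and 15.02 in untreated cells. The untreated values were the higher ones, by a narrow margin. Its log2 ratios of -0.32, -0.01 and -0.15 gave a mean of -0.16 ± 0.090 (moderated SE, n = 3 arrays) with a 95% interval of -0.37 to 0.05, which did not pass (limma adjusted p = 0.147). Ccl7 (MCP-3), its neighbour, had 13.72, 13.53 and 13.80 in treated cells, against 13.88, 13.91 and 13.62 in untreated cells, and these groups overlapped. Its mean of -0.12 ± 0.11 had a 95% interval of -0.38 to 0.14 (limma adjusted p = 0.364). After centring on the tested genes, the values were 0.01 for Ccl2, 0.05 for Ccl7 and 0.40 for Ccl12. Ccl12 (MCP-5), a mouse ligand of Ccr2, had 12.73, 12.81 and 12.92 in treated cells, against 12.67, 12.51 and 12.59 in untreated cells. The groups did not overlap, though on replicate 1 the ratio was only 0.06. Ccl12 rose by 0.23 ± 0.089 on the log2 scale, or 1.17-fold (limma adjusted p = 0.0459), and over its 15 alternative settings the adjusted p ranged from 0.00309 to 0.302. It no longer passed when replicate 2 (adjusted p = 0.113) or replicate 3 (0.211) was left out, with array weights (0.0717), in the log ratio of the scanner software (0.183), with the stricter filter on dim probes (0.0502) and with median centring in place of loess (0.302). Within arrays the ratio of Ccl2 was below that of Ccl12 by a similar amount each time, with differences of -0.38, -0.30 and -0.48.

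The 10 spots of Ccl2 show how far the ratio of one probe moved within an array. Their log2 ratios ran from -0.43 to -0.12 on replicate 1 with a median of -0.34, from -0.13 to 0.13 on replicate 2 with a median of -0.0082, and from -0.22 to -0.03 on replicate 3 with a median of -0.17. The standard deviation over spots was 0.10, 0.078 and 0.062 on replicates 1, 2 and 3, and that of the 3 array means was 0.15. Each of the other members rests on a single spot per array, and their spread between spots was not measured.

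**Figure D3:**
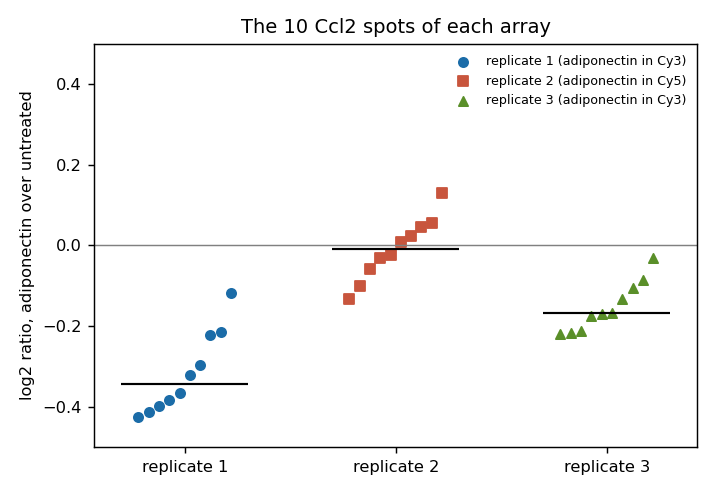
Log2 ratio of adiponectin over untreated (vertical axis) for the 10 spots of the Ccl2 probe on each array, with the median as a line. All spots of replicates 1 and 3 lie below 0, and those of replicate 2 lie on both sides of 0.

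Ccl6 was the member called lower. Ccl6 (C10) had a normalised log2 brightness of 12.98, 13.06 and 13.21 in treated cells, against 14.13, 14.48 and 14.10 in untreated cells. Every treated sample was dimmer than every untreated one. The log2 ratios of -1.15, -1.42 and -0.89 gave a mean of -1.15 ± 0.11 (moderated SE, n = 3 arrays), or 2.22-fold lower (limma adjusted p = 2.39e-05), at the 9.25th percentile of change among the tested genes. Ccl9 (MIP-1γ), its neighbour on the chromosome and, like Ccl6, a ligand of Ccr1, had 15.68, 15.80 and 16.02 in treated cells, against 15.69, 15.60 and 15.81 in untreated cells. These groups overlapped. Ccl9 was at 0.13 ± 0.087, with a 95% interval of -0.07 to 0.33 (limma adjusted p = 0.200), and it passed at 0.30 after centring on the tested genes (adjusted p = 0.0120). On each array the ratio of Ccl9 lay above that of Ccl6, by 1.14, 1.61 and 1.10 on the log2 scale.

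By the order of genes in the mouse assembly GRCm38.p6, used for neighbours alone, 11 CC chemokine genes lie on chromosome 11 in 2 clusters with 25 protein-coding genes between them. The first runs Ccl2, Ccl7, Ccl11, Ccl12, Ccl8 and Ccl1, and the second Ccl5, Ccl9, Ccl6, Ccl3 and Ccl4, each with no other protein-coding gene inside. The 4 tested genes of the first cluster lay between -0.16 and 0.49 in log2 change. The 5 of the second ran from -1.15 to 3.17, with Ccl6, the gene that fell, between Ccl9, which did not pass, and Ccl3, which rose most. On chromosome 8, Ccl22 and Ccl17 have 1 protein-coding gene, Cx3cl1, between them.

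**Figure D4:**
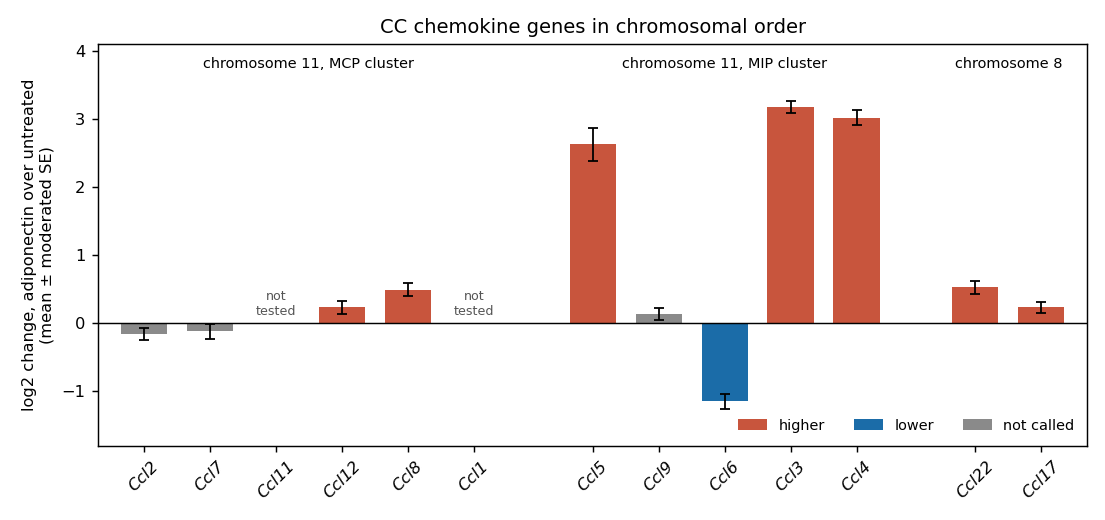
Mean log2 change of adiponectin over untreated (vertical axis, error bars are limma's moderated SE, n = 3 arrays) for the CC chemokine genes in the order in which they lie on chromosomes 11 and 8. The second cluster holds the bars of Ccl5 (2.62), Ccl3 (3.17) and Ccl4 (3.02) as well as the one below 0 of Ccl6 (-1.15). The bar of Ccl22 is a fitted value for a gene near background in untreated cells.

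Promoter sequences of RefSeq (GRCm38.p6) were matched by symbol for 6 of the 10 genes, Ccl3, Ccl6, Ccl9, Ccl12, Ccl17 and Ccl22. Those of 3 neighbours in the second cluster that behaved differently are shown, as the 250 bases before the start on the minus strand, 5′ to 3′: Ccl3 (chr11:83649379-83649628), which rose, Ccl6 (chr11:83593088-83593337), which fell, and Ccl9 (chr11:83578637-83578886), which did not pass. Capitals mark matches on either strand to the kB consensus, the AP-1 site TGANTCA, the interferon response element (GAAA, any 2 bases, GAAA) and the TATA box TATAAA.
Ccl3: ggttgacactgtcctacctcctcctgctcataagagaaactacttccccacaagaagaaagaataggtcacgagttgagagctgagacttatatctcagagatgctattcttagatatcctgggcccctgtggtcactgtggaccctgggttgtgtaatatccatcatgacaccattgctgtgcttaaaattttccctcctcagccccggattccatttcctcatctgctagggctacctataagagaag
Ccl6: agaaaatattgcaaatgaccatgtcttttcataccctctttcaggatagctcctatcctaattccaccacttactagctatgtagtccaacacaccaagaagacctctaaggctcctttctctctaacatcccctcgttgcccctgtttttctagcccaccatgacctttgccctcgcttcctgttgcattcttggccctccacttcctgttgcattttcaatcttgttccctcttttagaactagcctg
Ccl9: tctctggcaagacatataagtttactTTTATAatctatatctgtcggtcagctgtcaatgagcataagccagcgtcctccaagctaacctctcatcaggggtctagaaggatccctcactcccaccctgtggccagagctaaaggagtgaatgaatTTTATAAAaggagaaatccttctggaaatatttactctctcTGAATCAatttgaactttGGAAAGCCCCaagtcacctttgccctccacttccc

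Among these windows, matches were found in that of Ccl9 alone. It held a kB match (GGAAAGCCCC, on the other strand) that begins 35 bases before the start, and 3 TATA matches, 2 of which overlap. A match to TGANTCA begins 53 bases before the start and reads TGAATCA, with A at the open central base. Of all 32851 promoter windows of the same length, 5% held the kB consensus, 6.75% the pattern TGANTCA, 2.98% the interferon element and 12.4% the TATA box. Among the 6 members with a sequence, 1, 1, 0 and 2 did, where the second TATA match was that of Ccl12, 31 bases before its start. Ccl3 and Ccl6 had none of these letters in this window, which says nothing about sites elsewhere. The windows of Ccl6 and Ccl9 share the run GCCCTCCACTTCC, whose 13 bases were the longest shared by any of the 15 pairs of the 6 windows (6 to 10 in the others). It begins 55 bases before the start in Ccl6 and 14 bases before it in Ccl9.

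The ligands of Ccr4 were close to background. Ccl22 (MDC), which attracts T helper and regulatory T cells, was 25, 40.5 and 21 scanner units above its local background in treated cells on replicates 1, 2 and 3, against 10, 7 and 6.5 units in untreated cells, as raw brightness in dyes that differ between arrays. It was well above background on all 3 arrays in treated cells and not well above background on any array in untreated cells. After normalisation its log2 brightness was 6.47, 6.65 and 6.27 in treated cells, against 5.95, 5.95 and 5.93 in untreated cells. Ccl22 was on average 1.41-fold higher with adiponectin, with untreated readings near background allowed for. It was tested through its treated readings alone, so its limma adjusted p = 0.00111 is no independent support, and with median centring in place of loess it did not pass (adjusted p = 0.211). The 1.41-fold value sets the treated mean against the higher of the untreated signal and the dimmest signal well above background on each array. It is a mean close to the fitted 1.44-fold and not a lower limit. The log2 ratios of Ccl22 were 0.53, 0.70 and 0.34 on replicates 1, 2 and 3. The fitted log2 value depended on the processing, at 0.52 with a normexp offset of 50, 1.82 with an offset of 0, 0.91 in the authors' deposited table and 3.29 in the scanner's own log ratio. Ccl17 (TARC), the other ligand of Ccr4, was 20, 28 and 19 scanner units above background in treated cells, against 25.5, 15 and 24.5 units in untreated cells, where the Cy5 and Cy3 scales differ. It was well above background on 3 of 3 arrays in treated cells and on 1 of 3 in untreated cells. After normalisation its log2 brightness was 6.41, 6.46 and 6.30 in treated cells, against 6.16, 6.14 and 6.18 in untreated cells, without overlap. The log2 change of Ccl17 was 0.23 ± 0.084 (limma adjusted p = 0.0366), a call that ended when replicate 1 (adjusted p = 0.158) or replicate 2 (0.101) was left out and with median centring in place of loess (0.601), in a range from 0.00179 to 0.601 over its 14 alternatives. Without its treated readings Ccl17 would not have passed the filter on dim probes, so its p is no independent support. Its value was 0.72 with a normexp offset of 0, 0.40 in the authors' deposited table and 1.59 in the scanner's own log ratio.

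Dendritic cells are a known source of Ccl17 and Ccl22. Of 6 dendritic cell markers, 3 were tested, and Zbtb46, a transcription factor gene of that lineage, was called higher (1.51 ± 0.087) while Itgax (0.17) and Flt3 (0.08) did not pass. A second, dimmer probe of Zbtb46 gave 0.22 and was well above background in 1 reading. Xcr1, Clec9a and Cd209a were not well above background in any reading. The summed normalised brightness of the 3 tested markers was 660 to 747 in treated cells, against 482 to 485 in untreated cells. The part of these cells in the values of Ccl17 and Ccl22 was not tested.

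**Figure D5:**
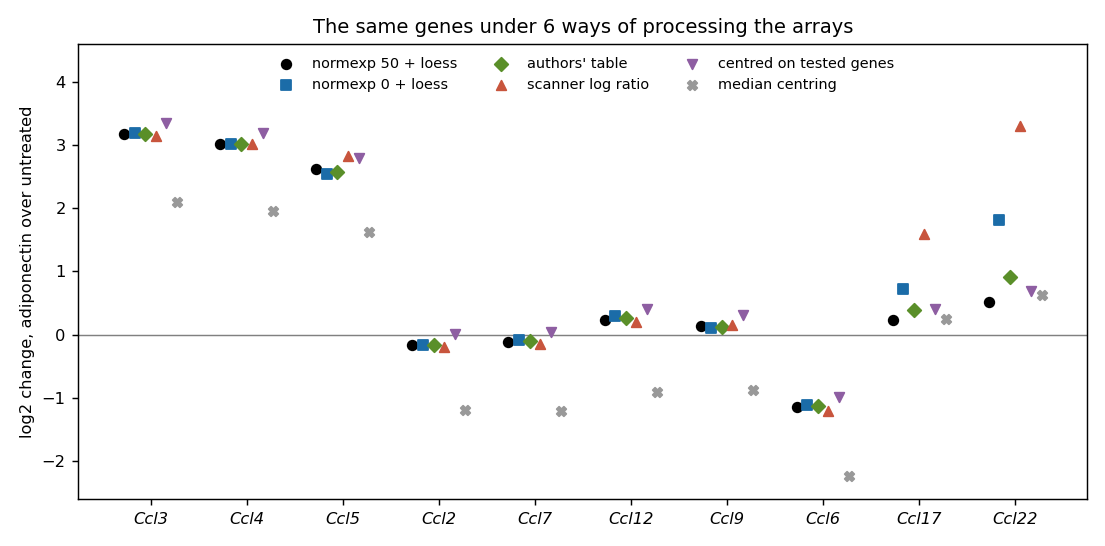
Log2 change of adiponectin over untreated (vertical axis) for each gene under 6 ways of processing the arrays. Ccl3, Ccl4, Ccl5 and Ccl6 move little except with median centring, while Ccl22 runs from 0.52 to 3.29 and Ccl17 from 0.23 to 1.59.

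Fewer of the other CC chemokine genes were measured. Of 11 listed, 5 were tested, of which 2 were higher, 2 lower and 1 did not pass, with a median log2 change of 0.12, beside shares of 24.5% higher and 46.1% lower over all tested genes. Ccl8 (MCP-2), which in the mouse acts on Ccr8, rose by 0.49 ± 0.091 (limma adjusted p = 0.00129), with 12.38, 12.53 and 12.70 in treated cells, against 12.06, 12.01 and 12.07 in untreated cells. Ccl19, a ligand of Ccr7, rose by 0.53 ± 0.081 (limma adjusted p = 0.000433) with its brightest probe, while its other probes gave 0.11 and 0.03. Ccl27a, a chemokine of epithelia that acts on Ccr10, was at -0.91 ± 0.087 and a second probe gave -0.84, but the remaining probe gave -0.05. Ccl25, a ligand of Ccr9, was called lower at -0.72 ± 0.11, though a dimmer probe gave -0.03, and Ccl24 (eotaxin-2) did not pass at 0.12 ± 0.10. Near-identical copies of Ccl19 and Ccl27a exist in the mouse genome, so their values are uncertain. The probes of Ccl1, Ccl11, Ccl20, Ccl26 and Ccl28 were not well above background in any of the 6 readings.

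Of 13 CC chemokine receptor and related genes, 8 were tested, and 2 were higher, 3 lower and 3 not called, beside the shares of 24.5% higher and 46.1% lower over all tested genes. Ccr2, the receptor of Ccl2, Ccl7 and Ccl12, fell by 4.00 ± 0.12 on the log2 scale (a change of -4.00), with 7.50, 7.12 and 7.62 in treated cells, against 11.41, 11.46 and 11.36 in untreated cells. Ccr1, a receptor of Ccl3, Ccl5, Ccl6 and Ccl9, was not well above background on any array in treated cells. Its fitted mean was 1.36-fold lower in treated cells (limma adjusted p = 0.00227). The log2 ratios of Ccr1 were -0.35, -0.61 and -0.36 on replicates 1, 2 and 3. Ccr1 passed the filter through its untreated readings alone, so its p and its place among the lower genes are not independent of that filter. Ccr3 was at -1.01 ± 0.12 and was well above background on 1 of 3 arrays in treated cells. Ccr7, which guides cells to lymph nodes, rose by 4.97 ± 0.082, and Ccrl2, an atypical receptor that binds the attractant chemerin, by 2.69 ± 0.11. In limma the adjusted p was at most 3.02e-07 for Ccr2, Ccr7 and Ccrl2, and 7.32e-05 for Ccr3. Without its untreated readings Ccr3 would not have passed the filter on dim probes, so its p is no independent support. Ccr8 (0.19), Ccr9 (0.05) and Ccr10 (0.01) did not pass. Ccr4, the receptor of Ccl17 and Ccl22, was not well above background in any reading, and neither were Ackr2 and Ackr4, while Ccr6 was in 1 reading and Ackr1 in 2. After centring on the tested genes, 4 receptor genes were higher in place of 2, as were 4638 of all 13179 tested genes in place of 3229.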

How the data were processed

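Total RNA of 3 pairs of treated and untreated macrophage cultures was measured on 3 Agilent 2-colour arrays. Per the submitters' processing notes and the file headers, spots were quantified with Agilent Feature Extraction 10.7.3.1. The authors' scanner files were used, in which, per the file headers, the intensity columns are median brightness values of spot and local background, and the log10 ratio is Cy5 over Cy3 after the scanner software's own processing. The steps behind the authors' deposited log2 table are not stated in the sources at hand. Its columns correlated with treated over untreated ratios after loess without background correction at r = 0.994, 0.990 and 0.992, which fixes its direction. Its background handling remains unknown.

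Median signals were corrected with normexp (offset 50) and then loess-normalised with zero weight on control spots (limma 3.58.1, R 4.3.3). Ratios were turned by the labelled dyes, outlier spots were left out and spots of a probe were averaged. Levels of single samples were taken after quantile normalisation of mean brightness between arrays. Probes were named by RefSeq accession. A probe was kept when well above background in at least 3 of 6 readings, with the brightest kept probe for each gene, and 7481 named genes were not tested. The 3 ratios were fitted with lmFit and eBayes (2 residual and 6.22 prior degrees of freedom) and adjusted with the Benjamini-Hochberg method. The fit was tested on simulated data. The genes named are all members, the other CC chemokine and receptor genes by list, and cell type markers. Alternatives changed the background correction, normalisation, centring, dim-probe filter, probe rule, dye term, array weights and the arrays used. Members and lists were chosen with earlier results of these data known. No genes were ranked by likeness of pattern, and 1 receptor gene was left out of the list and is not reported here. The number of arrays limits the precision. The labels give the dose in µg/ml in the treatment text and in mg/ml in the extraction text, and the first was used.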

Additional observations from a re-analysis of the deposited data

How the results depend on the processing

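Over the 15 alternatives, the calls of Ccl3, Ccl4, Ccl5 and Ccl6 were each lost in 1, median centring in place of loess (log2 changes of 2.10, 1.96, 1.63 and -2.24, limma adjusted p = 0.0903, 0.0878, 0.271 and 0.0766). The standard errors there were 0.65, 0.59, 1.00 and 0.55. In the other 14 their log2 changes ran from 3.12 to 3.34, 2.87 to 3.19, 2.18 to 2.93 and -1.28 to -0.98. With median centring 0 of the 10 genes were called higher and 0 lower (3 at an unadjusted p under 0.05), limma called 0 of all tested genes (5314 at an unadjusted p under 0.05), the median of all tested genes was -1.03, and Ccl12 turned to -0.90 (adjusted p = 0.302). The number called higher was 3 with probes required to be well above background in all readings, where Ccl17 and Ccl22 are not tested. Beside it, 3063 of 11391 genes were higher. Without 1 replicate it was 4 to 5, beside 2761 to 3150 of 13179 genes. The number called lower was 2 with array weights, where Ccl2 passed at -0.21 (adjusted p = 0.0489), beside 6284 of 13179 genes. Without any 1 replicate it was 1, beside 5368 to 6144 of 13179 genes. Ccl7 did not pass in any of the 15. The cause of these changes was not tested. The ratios within arrays already pair each treated with an untreated sample, and the fit to separate channels changed no call of the 10 genes. No further replicate block was added, because with 1 ratio for each replicate it would leave nothing to estimate. Values of Ccl17 and Ccl22 are limited by brightness near background.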
